A study of Mus musculus with 15 samples.

Results

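The 9 genes described here make, carry or bind retinoic acid: *Aldh1a1*, *Aldh1a2*, *Aldh1a3*, *Rbp2*, *Rbp4*, *Rdh10*, *Stra6*, *Crabp1* and *Crabp2*. They were chosen by name, for their role in the pathway, from the 19494 genes that the arrays name. The choice was made with earlier results of these data known. Each was measured by 1 probe set. Expression was measured in colon RNA of 11-week-old mice on Clariom S arrays, with 1 array per mouse and 5 mice in each of 3 groups of littermates. *Nemo* FL mice carry the conditional *Nemo* allele and served as controls. NEMO IEC-KO mice lack NEMO, a subunit of the kinase complex that activates NF-κB, in intestinal epithelial cells through Villin-Cre and carry wild-type *Ripk1*. NEMO IEC-KO *Ripk1* S166A/S166A mice have the same epithelial deletion, and both copies of *Ripk1*, edited with CRISPR/Cas9, encode alanine in place of the serine at which the kinase RIPK1 phosphorylates itself. Below, the first group is called control mice and the last *Ripk1* mutant mice. The comparisons ask what the loss of epithelial NEMO does to colon RNA, and how much of it is seen when RIPK1 cannot be phosphorylated at that site.

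Vitamin A reaches the gut as retinol, retinyl esters and carotenoids. Retinol is oxidised to retinal by retinol dehydrogenases, of which RDH10 is a main one, and retinal is oxidised irreversibly to retinoic acid by the retinaldehyde dehydrogenases ALDH1A1, ALDH1A2 and ALDH1A3. RBP2 binds retinol and retinal inside intestinal absorptive cells, RBP4 carries retinol in blood, and STRA6 is the cell surface receptor for RBP4. CRABP1 and CRABP2 bind retinoic acid in the cytosol, and CRABP2 hands it to the nuclear retinoic acid receptors. In the gut, retinoic acid is known for directing lymphocytes to the intestine and for a part in tolerance and IgA responses.

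Values are on the deposited scale, read as log2, so that a difference of 1 is a doubling of signal, and levels are compared only within a gene. *Ikbkg*, which encodes NEMO, ranged from 6.18 to 6.55 in control mice, from 4.85 to 5.30 in NEMO IEC-KO mice and, in *Ripk1* mutant mice, from 5.23 to 5.43. Mouse 55 is marked WT in its title, but the genotype given for it is NEMO IEC-KO. By its title it was kept with the control mice. Its *Ikbkg* value was 6.28, within the range of the other control mice and above every NEMO IEC-KO mouse. The neutrophil gene *S100a8* was at most 3.33 in the control mice, mouse 55 among them, and at least 7.89 in NEMO IEC-KO mice. The calls lost when mouse 55 is moved to the NEMO IEC-KO group are given below. With that move 8.16% of all probe sets passed between NEMO IEC-KO and control mice in place of 25.4%, and 6.48% between *Ripk1* mutant and NEMO IEC-KO mice in place of 19.2%. By their Y chromosome genes, 1 of 5 control, 2 of 5 NEMO IEC-KO and 5 of 5 *Ripk1* mutant mice were male. The titles number the arrays in genotype order, so that an effect of that order and the genotype cannot be told apart. In RNA from whole tissue, fewer cells of a type and less RNA per cell cannot be told apart.

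RefSeq promoter sequences (GRCm38.p6, 250 bases before to 50 bases after the start of transcription) were found for 6 of the 9 genes. Those of *Rbp2* and *Aldh1a1* are shown because these genes fell together in NEMO IEC-KO mice and deviated together between mice of a genotype. They were searched on both strands for AGGTCA and its variants AGTTCA and GGGTCA, the core letters that retinoid receptors are known to bind, and for TATAAA and CCAAT. Capitals mark the matches, and both promoters are on the plus strand, chr9:98490287-98490586 for *Rbp2* and chr19:20601718-20602017 for *Aldh1a1*.
Rbp2: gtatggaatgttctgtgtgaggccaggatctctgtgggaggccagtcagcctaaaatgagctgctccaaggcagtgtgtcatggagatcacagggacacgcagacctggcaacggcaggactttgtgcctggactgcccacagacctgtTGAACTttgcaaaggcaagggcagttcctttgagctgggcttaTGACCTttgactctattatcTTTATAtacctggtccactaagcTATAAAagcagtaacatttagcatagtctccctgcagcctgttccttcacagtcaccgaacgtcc
Aldh1a1: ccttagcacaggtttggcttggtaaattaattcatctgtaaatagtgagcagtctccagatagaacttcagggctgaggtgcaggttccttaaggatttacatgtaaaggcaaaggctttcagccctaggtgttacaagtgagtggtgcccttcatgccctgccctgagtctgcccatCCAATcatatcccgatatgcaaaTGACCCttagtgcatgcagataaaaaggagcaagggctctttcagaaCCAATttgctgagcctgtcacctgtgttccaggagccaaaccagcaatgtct
In the *Rbp2* promoter the opposite strand held 1 AGTTCA, whose match began 101 bases before the start, and 1 AGGTCA, 58 bases before it. TATAAA matched 15 bases before the start and, on the opposite strand, 38 bases before it. In the *Aldh1a1* promoter the opposite strand held 1 GGGTCA, 49 bases before the start, and CCAAT began 72 and 2 bases before it. A second *Aldh1a1* start in the table, at chr19:20492333-20492632, held none of these letters. *Rbp4* and *Stra6*, which passed in no comparison, had matches to the receptor letters too. An *Rbp4* promoter held GGGTCA on the opposite strand, 53 bases before its start. A *Stra6* promoter held AGTTCA, 15 bases after its start. The *Aldh1a2* promoter held CCAAT only, and that of *Crabp1* held no match. Of 32851 promoters of this length, 16.3% held AGGTCA, 14% AGTTCA, 13.7% GGGTCA, 13.6% TATAAA and 37.4% CCAAT. Each match alone is thus common, and whether any bears on expression was not tested.

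Of the 9 genes, 4 passed the test between NEMO IEC-KO and control mice (limma, adjusted p under 0.05 over all probe sets). *Aldh1a3* and *Rdh10* rose, and *Aldh1a1* and *Rbp2* fell. Over the whole array 25.4% of 22142 probe sets passed, 11.6% higher and 13.8% lower. The median size of the log2 difference was 0.24 over the 9 genes and 0.21 over all probe sets. In *Ripk1* mutant against NEMO IEC-KO mice 5 of 9 passed. *Aldh1a1*, *Rbp2* and *Crabp1* were higher in the mice with mutant *Ripk1*, and *Aldh1a3* and *Rdh10* were lower. Here 19.2% of all probe sets passed, 9.33% higher and 9.90% lower, and the median size of the difference was 0.61 over the 9 genes against 0.20 over all. Both comparisons share the NEMO IEC-KO mice. Since the 9 genes were chosen with earlier results of these data known, their counts and median sizes are only a description. When *Ripk1* mutant and control mice were compared, none of the 9 passed by limma, 2 had an unadjusted p under 0.05, and 0.0542% of all probe sets passed.

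**Figure D1:**
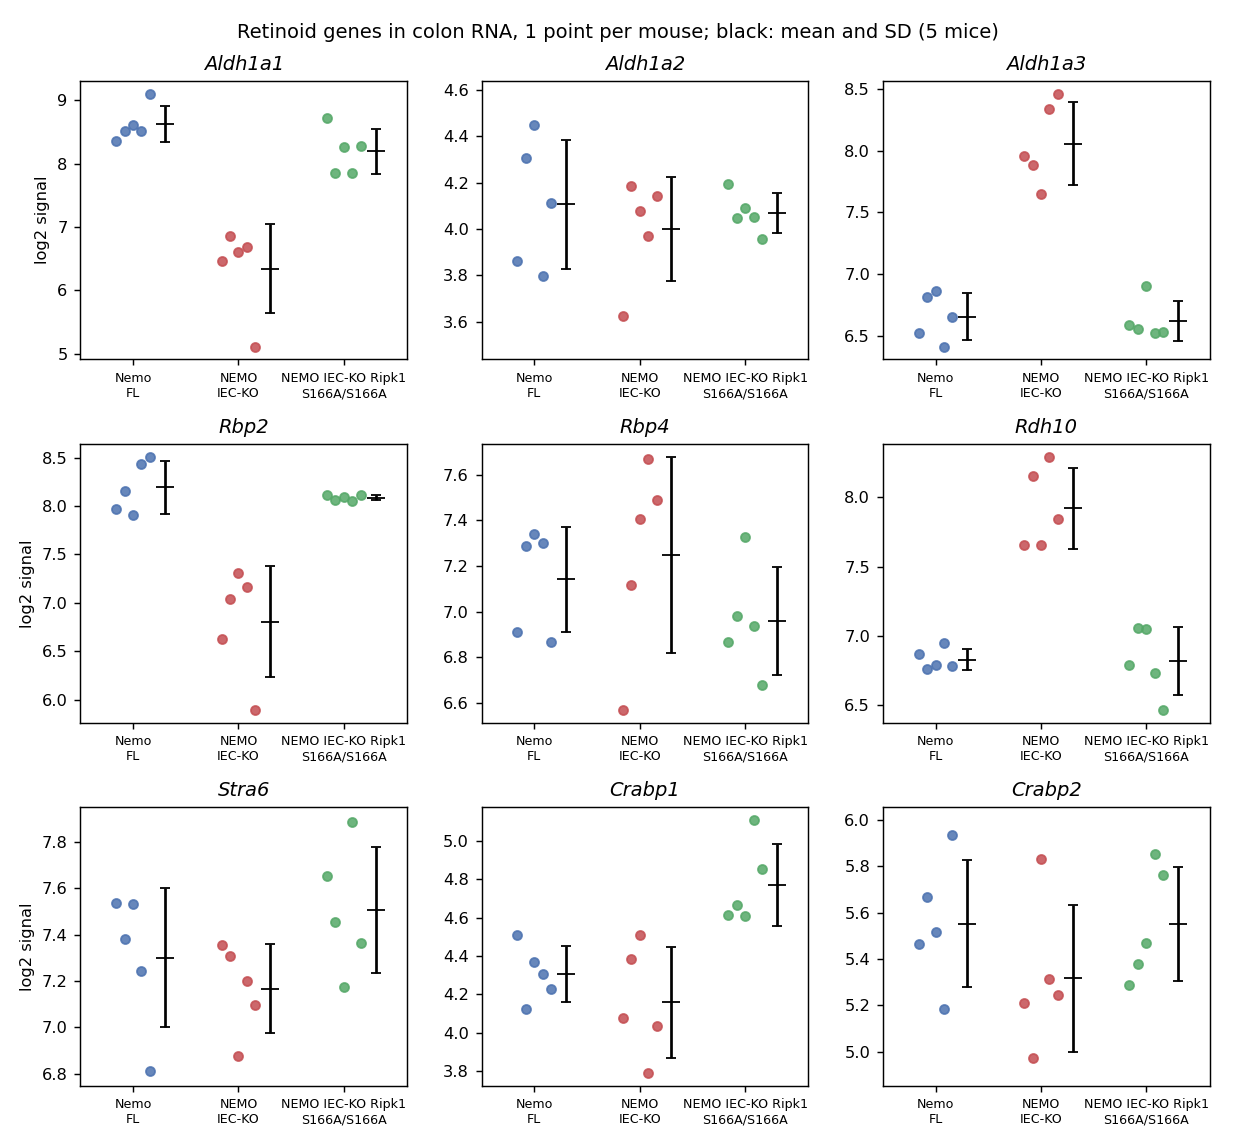
Log2 signal of the 9 genes in each mouse (y axis, a scale per gene), with 1 point per mouse and the mean and SD of 5 mice in black. *Aldh1a1* and *Rbp2* are low and *Aldh1a3* and *Rdh10* high in all 5 NEMO IEC-KO mice, with no overlap with either other group.

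Among the enzymes, the order of the groups was not the same for the 3 retinaldehyde dehydrogenases. *Aldh1a1* had log2 values of 8.35, 8.52, 8.62, 8.52 and 9.11 in control mice, here and below in ascending order of mouse number. It had 6.46, 6.86, 6.60, 6.68 and 5.11 in NEMO IEC-KO mice. In *Ripk1* mutant mice the values were 8.72, 7.86, 8.27, 7.86 and 8.29. All NEMO IEC-KO mice lay below every mouse of the other groups, and the fifth NEMO IEC-KO mouse was the lowest by a wide margin. *Aldh1a1* was thus 4.86-fold lower in NEMO IEC-KO than in control mice (log2 difference -2.28, SE 0.26, adjusted p = 1.79e-05). It was 3.62-fold higher in *Ripk1* mutant than in NEMO IEC-KO mice (log2 difference 1.86, SE 0.27, adjusted p = 3.03e-04). With each mouse left out in turn, these differences lay between -2.41 and -1.97 and between 1.55 and 1.99. When mouse 55 was moved to the NEMO IEC-KO group, they were -1.70 and 1.40 and no longer passed (adjusted p = 0.0646 and 0.0909).

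*Aldh1a3*, the second dehydrogenase of this family to pass, moved the other way. Its log2 values were 6.52, 6.81, 6.86, 6.41 and 6.65 in control mice, 7.96, 7.88, 7.65, 8.33 and 8.46 in NEMO IEC-KO mice and 6.59, 6.55, 6.90, 6.52 and 6.53 in *Ripk1* mutant mice. The NEMO IEC-KO mice were all above the others, and the other 2 groups overlapped. It was 2.65-fold higher in NEMO IEC-KO than in control mice (log2 difference 1.41, SE 0.16, adjusted p = 1.23e-05) and fell by 1.44 in *Ripk1* mutant against NEMO IEC-KO mice (SE 0.16, adjusted p = 2.41e-05). *Aldh1a2*, the dehydrogenase known for retinoic acid synthesis in the embryo and in some gut dendritic cells, ranged from 3.80 to 4.45 in control, from 3.63 to 4.19 in NEMO IEC-KO and from 3.95 to 4.19 in *Ripk1* mutant mice. These groups overlapped, and its overall mean lay below that of 4.62 which bounds the dimmest 25% of probe sets. The log2 difference between NEMO IEC-KO and control mice was -0.11, with a 95% interval from -0.42 to 0.21, so that a change of *Aldh1a2* larger than this was not seen but a small one could be missed.

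*Rdh10* encodes the dehydrogenase that makes retinal, the substrate of the ALDH1A enzymes. Its log2 values were 6.87, 6.76, 6.79, 6.95 and 6.79 in control mice, a range of 0.19. They were 7.65, 8.16, 7.66, 8.29 and 7.84 in NEMO IEC-KO mice and 6.79, 7.06, 7.05, 6.74 and 6.47 in *Ripk1* mutant mice. Every NEMO IEC-KO mouse was above every other mouse. *Rdh10* was 2.13-fold higher in NEMO IEC-KO than in control mice (log2 difference 1.09, SE 0.14, adjusted p = 3.54e-05) and 2.14-fold lower in *Ripk1* mutant than in NEMO IEC-KO mice (log2 difference -1.10, SE 0.16, adjusted p = 2.59e-04).

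Among the carriers and the receptor, *Rbp2* passed in both comparisons. Its log2 values were 7.96, 8.15, 7.90, 8.43 and 8.51 in control mice and 6.63, 7.04, 7.31, 7.16 and 5.89 in NEMO IEC-KO mice. The values in *Ripk1* mutant mice were 8.11, 8.06, 8.10, 8.05 and 8.11, which spread over 0.0628 only. The lowest value was again that of the fifth NEMO IEC-KO mouse. *Rbp2* was 2.61-fold lower in NEMO IEC-KO than in control mice (log2 difference -1.39, SE 0.23, adjusted p = 3.58e-04) and 2.43-fold higher in *Ripk1* mutant than in NEMO IEC-KO mice (log2 difference 1.28, SE 0.21, adjusted p = 6.76e-04). When mouse 55 was moved to the NEMO IEC-KO group, the differences were -1.02 and 1.00 and no longer passed (adjusted p = 0.0973 and 0.0735).

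*Rbp4*, the carrier of retinol in blood, ranged from 6.87 to 7.34 in control, from 6.57 to 7.67 in NEMO IEC-KO and from 6.68 to 7.33 in *Ripk1* mutant mice. Its NEMO IEC-KO mice spanned both other groups, and no comparison passed (log2 differences of 0.11, -0.29 and -0.18, the last between *Ripk1* mutant and control). *Stra6*, the receptor for RBP4, ranged from 6.81 to 7.54, from 6.88 to 7.36 and from 7.18 to 7.89 in the same order of groups. Its difference between *Ripk1* mutant and NEMO IEC-KO mice was 0.34, with a 95% interval from 0.025 to 0.65, and did not pass after adjustment (adjusted p = 0.126).

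Of the 2 retinoic acid binding proteins, *Crabp1* passed in 1 comparison. Its log2 values were 4.51, 4.13, 4.37, 4.30 and 4.23 in control mice, 4.08, 4.39, 4.51, 3.79 and 4.03 in NEMO IEC-KO mice and 4.62, 4.66, 4.61, 5.11 and 4.85 in *Ripk1* mutant mice. The last group lay above every mouse of the other 2, and its mice 94 and 95 were highest. The difference between *Ripk1* mutant and NEMO IEC-KO mice was 0.61 (SE 0.15, adjusted p = 0.0116), at a signal within the dimmest 25% of probe sets. It no longer passed with a sex term (0.62, adjusted p = 0.0525), nor without mice 94 and 95, whose arrays had the narrowest spread of values (0.47, adjusted p = 0.0907). *Crabp2*, which delivers retinoic acid to the nucleus, ranged from 5.18 to 5.93 in control, from 4.98 to 5.83 in NEMO IEC-KO and from 5.29 to 5.85 in *Ripk1* mutant mice. It overlapped between all groups and passed in no comparison (adjusted p = 0.328, 0.359 and 0.996).

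**Figure D2:**
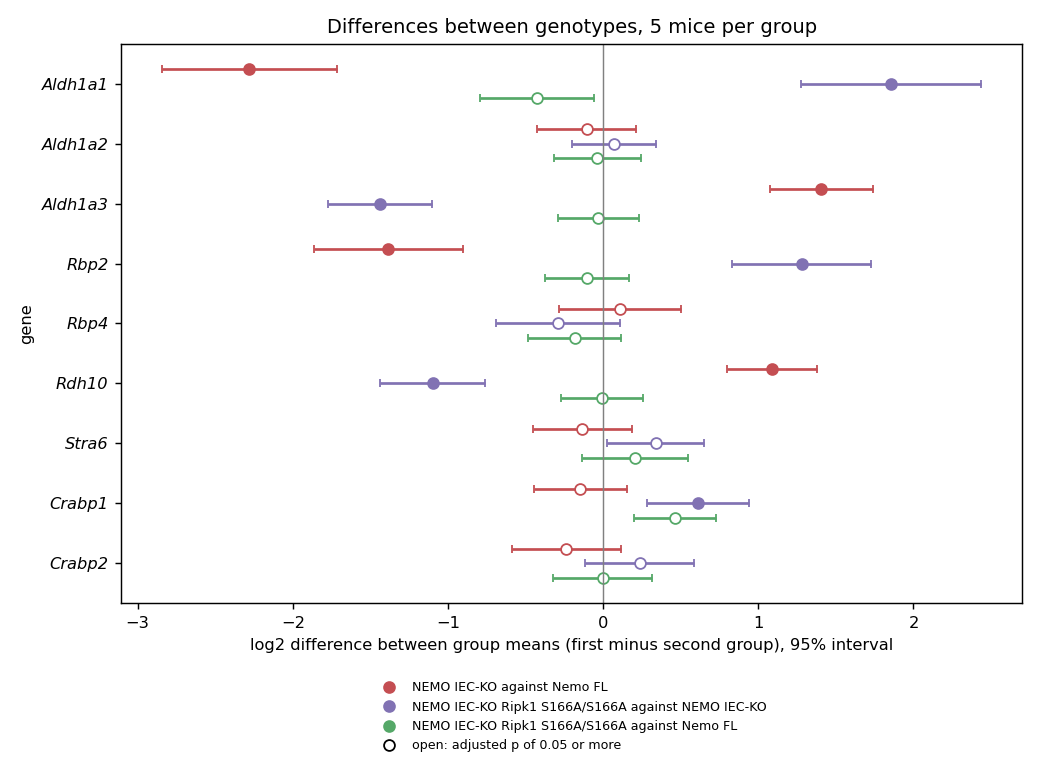
Log2 difference between group means (x axis, first group minus second) with its 95% interval for the 9 genes in 3 comparisons, filled where the adjusted p was under 0.05. The differences of *Aldh1a1*, *Aldh1a3*, *Rbp2* and *Rdh10* between NEMO IEC-KO and control mice have the opposite sign between *Ripk1* mutant and NEMO IEC-KO mice, and both share the NEMO IEC-KO mice.

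Against control, the *Ripk1* mutant mice had *Aldh1a3*, *Rdh10* and *Rbp2* values whose log2 differences were -0.032, -0.0098 and -0.11. Their 95% intervals ran from -0.29 to 0.23, from -0.27 to 0.25 and from -0.38 to 0.16. *Aldh1a1* was 1.34-fold lower in *Ripk1* mutant mice, with an interval of the log2 difference from -0.79 to -0.056 and an unadjusted p of 0.0265 from limma, and did not pass after adjustment (adjusted p = 0.433). *Crabp1* was 1.38-fold higher (log2 difference 0.46, 95% interval 0.20 to 0.73) with ranges that did not overlap, and did not pass either (adjusted p = 0.287). The 5 *Ripk1* mutant mice were male and 4 of the 5 control mice female, so that the part of sex in these 2 differences was not tested.

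Genes of smooth muscle moved with *Aldh1a1* and *Rbp2*. All 8 of 8 smooth muscle genes (*Acta2*, *Myh11*, *Des*, *Cnn1*, *Tagln*, *Actg2*, *Smtn* and *Lmod1*) were lower in NEMO IEC-KO than in control mice, with a median log2 difference of -1.35, and all 8 were higher in *Ripk1* mutant than in NEMO IEC-KO mice, with a median of 1.28. Their mean lay between 10.9 and 11.4 in control mice, between 8.43 and 10.2 in NEMO IEC-KO mice and between 10.7 and 11.4 in *Ripk1* mutant mice, and was lowest in the fifth NEMO IEC-KO mouse. Over the 15 mice, as deviations from the genotype means, Pearson's r of this mean was 0.936 with *Aldh1a1* (Spearman's rho 0.857, r 0.843 without the farthest 2). Here and below, these are the 2 mice farthest from their genotype mean in the retinoid gene, or in the first of 2 named. The r of the smooth muscle mean with *Rbp2* was 0.873 (rho 0.796, r 0.586 without the farthest 2). With *Aldh1a3* r was -0.408 and changed sign, to 0.335, without the farthest 2, and with *Rdh10* it was 0.116. *Aldh1a1* and *Rbp2* had an r of 0.805 with each other (rho 0.643, r 0.624 without the farthest 2). These values share the array and its RNA and are given as a description. When mouse 55 was moved, 1 of the 8 smooth muscle genes passed in each of the first 2 comparisons, with medians of -1.08 and 1.06. Over all probe sets 13.8% were lower in the first comparison and 9.33% higher in the second before this move. After it 8.16% and 6.48% of all probe sets passed in either direction.

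Markers of other cell types were also measured. Between NEMO IEC-KO and control mice, 3 of 7 adipocyte genes and 2 of 9 enteric neuron and glia genes passed as lower and none as higher. Of 9 fibroblast genes 2 were lower and 1 higher, and of 14 small intestine enterocyte genes 3 were lower and 2 higher. Of 8 mesothelium genes 1 was lower and 2 were higher. Lower were also 1 of 8 genes of endothelium and lymphatics and 1 of 6 hepatocyte genes. Of 13 colon epithelial genes, 3 passed as lower in NEMO IEC-KO mice, and the mean of the 13 lay between 11.2 and 11.4 in control, between 10.6 and 10.8 in NEMO IEC-KO and between 11.3 and 11.4 in *Ripk1* mutant mice. The 3 were the transporters *Slc26a3* and *Aqp8* and the carbonic anhydrase *Car1*, with log2 differences of -2.65, -3.16 and -1.26, while the general epithelial genes *Epcam*, *Cdh1*, *Vil1* and *Krt8* had log2 differences of 0.054, 0.0058, -0.075 and -0.12 and did not pass (adjusted p from 0.473 to 0.981). Of the neutrophil genes measured 7 of 7, and of the macrophage genes 5 of 8, were higher in NEMO IEC-KO than in control mice, and 1 macrophage gene was lower. Of 12 dendritic cell genes, 4 were higher and 1 was lower. Over all probe sets 11.6% were higher and 13.8% lower in this comparison. When mouse 55 was moved, 2 epithelial genes passed as lower, and 3 neutrophil, 1 macrophage and 2 dendritic cell genes as higher. Of the other lists, 1 adipocyte, 3 small intestine enterocyte, 2 endothelium and lymphatics and 1 hepatocyte gene were then lower. Higher was 1 mesothelium gene. Over all probe sets 8.16% passed in either direction after the move. Of all pairs of a retinoid gene and a marker list, 4 had an r beyond 0.6 that stayed beyond 0.5 without the farthest 2 mice, limits chosen after the values were seen. Those of *Aldh1a1* and *Rbp2* with smooth muscle are given above. The mean of the macrophage genes had an r of 0.734 with *Rdh10* (rho 0.754, r 0.568 without the farthest 2), and that of the dendritic cell genes 0.723 with *Aldh1a2* (rho 0.664, r 0.609 without the farthest 2). The part of any of these cell types in the differences of the retinoid genes was not tested.

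**Figure D3:**
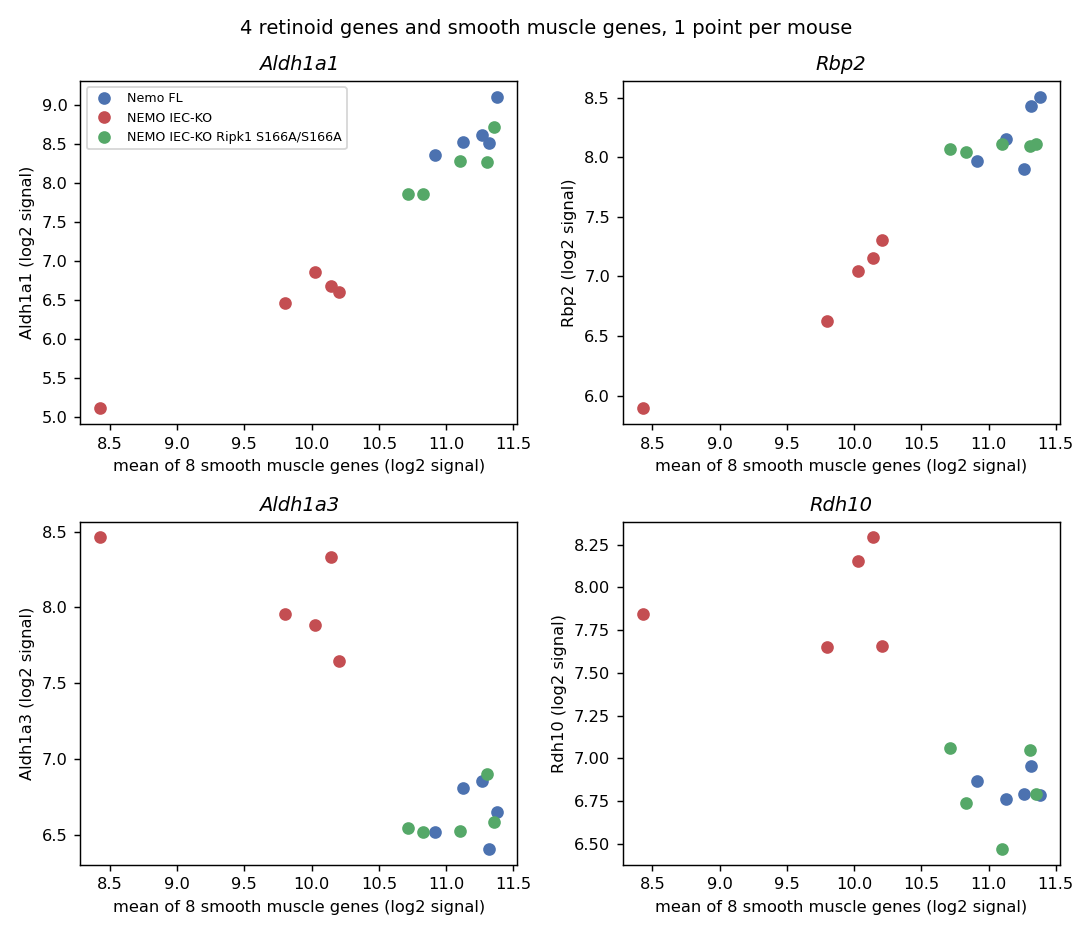
Log2 signal of *Aldh1a1*, *Rbp2*, *Aldh1a3* and *Rdh10* (y axes) against the mean log2 signal of 8 smooth muscle genes (x axes), 1 point per mouse. The fifth NEMO IEC-KO mouse has the lowest smooth muscle mean, 8.43, and the lowest *Aldh1a1* and *Rbp2* values.

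The genes whose deviations from the genotype means were most like those of each member over the 15 mice were also listed, the 3 highest of 19527 named probe sets in each case. For *Aldh1a1* these were *Sparcl1*, *Pgm5* and *Myh11*, the smooth muscle myosin heavy chain, with r of 0.953, 0.953 and 0.951. For *Rbp2* they were *1110032A03Rik*, *Selenop* and *Mgp*, with r of 0.949, 0.936 and 0.934. For *Rdh10* they were *Atp11b*, *Card6* and *Gpc4*, with r of 0.933, 0.891 and 0.878, and for *Aldh1a3* *Gm5577*, *Gpr15* and *Mstn*, with r of 0.875, 0.850 and 0.827. For *Crabp1* they were *Gsdme*, *Tmprss3* and *Gm4861*, with r of 0.870, 0.870 and 0.861. Without the farthest 2 mice the r of all genes listed lay between 0.681 (*Mstn*) and 0.956 (*Atp11b*), and that of *Gpr15*, a dim signal, was 0.704. Each was picked as among the highest of 19527 over 15 mice, so that unrelated genes can reach high values too. None of the 3 genes most like *Rdh10*, nor of those most like *Aldh1a3*, passed the test between NEMO IEC-KO and control mice (adjusted p from 0.235 to 0.929). Nor did *Mgp*, listed for *Rbp2*, or *Tmprss3* and *Gm4861*, listed for *Crabp1* (adjusted p = 0.785, 0.999 and 0.515). The other genes listed passed as lower in NEMO IEC-KO mice.

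Another 67 genes of the retinoid pathway were measured, from lists of oxidoreductases, carotenoid genes, retinyl ester enzymes, carriers, breakdown enzymes, receptors and targets. Between NEMO IEC-KO and control mice 24 of them passed, 11 higher and 13 lower, which is 35.8% against 25.4% of all probe sets. In the comparison of *Ripk1* mutant with NEMO IEC-KO mice 21 passed, 11 higher and 10 lower, which is 31.3% against 19.2%. The lists were chosen with earlier results of these data known, so these shares are only a description. Whether they exceed those of the whole array was not tested. The median size of the log2 difference was 0.27 against 0.21 over all probe sets in the first comparison and 0.26 against 0.20 in the second. Between *Ripk1* mutant and control mice none passed by limma and 6 had an unadjusted p under 0.05, as did 10.6% of all probe sets.

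Many of these calls were lost when mouse 55, a mouse with *Ikbkg* in the control range, was moved to the NEMO IEC-KO group. The same move took the share of all probe sets that passed from 25.4% to 8.16% between NEMO IEC-KO and control mice. Between *Ripk1* mutant and NEMO IEC-KO mice it took that share from 19.2% to 6.48%. With mouse 55 moved, 7 of the 24 genes still passed between NEMO IEC-KO and control mice (adjusted p from 0.00959 to 0.0458). These were *Cyp2s1*, *Rdh7*, *Dhrs9*, *Tgm2*, *Ttr*, *Fabp5* and *Isx*. The other 17 no longer passed (adjusted p from 0.054 to 0.718), and these were *Rdh11*, *Rdh16*, *Rdh19*, *Adh1*, *Adh5*, *Akr1b8*, *Bco1*, *Bco2*, *Cd36*, *Dgat2*, *Ces1d*, *Rarb*, *Ncoa1*, *Egr1*, *Ccr9*, *Itgb7* and *Madcam1*. Of the 21 genes in the comparison of *Ripk1* mutant with NEMO IEC-KO mice, *Cyp2s1*, *Rdh7*, *Rxra*, *Tgm2*, *Fabp5*, *Rdh16* and *Ces1g* still passed (adjusted p from 0.00671 to 0.0316). The 14 that no longer did (adjusted p from 0.0546 to 0.232) were *Rdh11*, *Rdh19*, *Dhrs9*, *Adh1*, *Bco1*, *Isx*, *Dgat2*, *Ttr*, *Rarb*, *Rorb*, *Ncoa1*, *Egr1*, *Ccr9* and *Madcam1*. The paragraphs on these genes give their values with mouse 55 among the control mice.

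The retinol and retinal oxidoreductases held the largest difference. *Dhrs9*, a short-chain dehydrogenase known in humans to oxidise retinol, ranged from 4.77 to 6.02 in control mice with a median of 5.19, from 8.84 to 10.0 in NEMO IEC-KO mice with a median of 9.57, and from 5.28 to 7.60 in *Ripk1* mutant mice with a median of 7.18. It was 18.6-fold higher in NEMO IEC-KO than in control mice (log2 difference 4.22, SE 0.24, adjusted p = 2.4e-08) and fell by 2.76 in *Ripk1* mutant against NEMO IEC-KO mice (SE 0.39, adjusted p = 2.06e-04). The mutant mice lay on average 1.46 above control mice, with overlapping ranges and an adjusted p of 0.270. Without *Ripk1* mutant mouse 95 this difference was 1.81 and passed (adjusted p = 0.0425). Of the 19 oxidoreductases measured, 3 rose and 5 fell in NEMO IEC-KO mice, beside 11.6% higher and 13.8% lower of all probe sets. *Adh1*, an alcohol dehydrogenase that oxidises retinol, fell by 0.98, *Rdh7* by 0.87 and *Akr1b8*, an aldo-keto reductase, by 0.82. *Adh1* and *Rdh7* were higher again in *Ripk1* mutant than in NEMO IEC-KO mice by 0.83 and 1.01.

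The genes of carotenoid uptake and cleavage gave 1 higher and 3 lower of 5 in NEMO IEC-KO mice, beside 11.6% and 13.8% of all probe sets. *Isx*, a gut transcription factor that retinoic acid induces and that represses carotenoid uptake and cleavage in mice, ranged from 4.38 to 5.00 in control, from 6.24 to 7.12 in NEMO IEC-KO and from 4.39 to 6.03 in *Ripk1* mutant mice. It was 3.92-fold higher in NEMO IEC-KO than in control mice (adjusted p = 1.2e-06) and 3.13-fold lower in *Ripk1* mutant than in NEMO IEC-KO mice (adjusted p = 4.23e-04). *Bco1* and *Bco2*, which cleave carotenoids, fell by 0.57 and 0.79, and *Cd36*, a lipid uptake receptor, by 1.43. *Bco1* alone of these 3 passed between *Ripk1* mutant and NEMO IEC-KO mice, where it was higher by 0.61, while *Cd36* had a difference of 0.85 (adjusted p = 0.0597).

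Of 8 retinyl ester enzymes, *Dgat2*, an acyltransferase, rose by 0.86 and the carboxylesterase *Ces1d* fell by 0.52 in NEMO IEC-KO mice. In that comparison 11.6% of all probe sets were higher and 13.8% lower. Between *Ripk1* mutant and NEMO IEC-KO mice *Dgat2* fell by 0.70 and *Ces1g* by 0.84. *Lrat*, the main retinol esterifying enzyme, had a log2 difference of -0.13 between NEMO IEC-KO and control mice, with a 95% interval from -0.49 to 0.23. Of 6 other carriers, *Ttr*, the blood partner of RBP4, fell by 1.22, and *Fabp5*, which can carry retinoic acid to the nucleus, rose by 1.06 in NEMO IEC-KO mice. In *Ripk1* mutant against NEMO IEC-KO mice *Ttr* rose by 0.93 and *Fabp5* fell by 1.13.

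Of the 4 genes listed for retinoic acid breakdown, *Cyp2s1*, a cytochrome P450 reported to metabolise retinoic acid in humans, was the 1 that passed. It ranged from 9.64 to 10.7 in control, from 7.73 to 9.29 in NEMO IEC-KO and from 10.4 to 11.0 in *Ripk1* mutant mice. It was 3.36-fold lower in NEMO IEC-KO than in control mice (adjusted p = 1.42e-04) and 4.17-fold higher in *Ripk1* mutant than in NEMO IEC-KO mice (adjusted p = 2.54e-05). The dedicated retinoic acid hydroxylases *Cyp26a1*, *Cyp26b1* and *Cyp26c1* had log2 differences of 0.21, -0.042 and -0.068 between NEMO IEC-KO and control mice (adjusted p = 0.560, 0.846 and 0.744).

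Of 12 receptors and cofactors, 2 passed as lower in NEMO IEC-KO than in control mice and 0 as higher, beside 13.8% and 11.6% of all probe sets. *Rarb*, a retinoic acid receptor that is itself a retinoic acid target, fell by 0.50, and the coactivator *Ncoa1* by 0.45. In *Ripk1* mutant against NEMO IEC-KO mice *Rarb* rose by 0.53, *Rxra* and *Ncoa1* by 0.46 each and *Rorb*, a dim signal, by 0.42. *Rara* and *Rarg* passed in neither comparison (adjusted p from 0.351 to 0.877). Of 16 genes listed as targets of retinoic acid, some of them in the other lists too, 4 rose (*Isx*, *Egr1*, *Tgm2* and *Ccr9*) and *Rarb* fell in NEMO IEC-KO mice. Here too 11.6% of all probe sets were higher and 13.8% lower. The transglutaminase gene *Tgm2* rose by 1.27 and the immediate early gene *Egr1* by 1.34, and they fell by 1.33 and 1.04 in *Ripk1* mutant against NEMO IEC-KO mice. Of 5 genes of gut homing and IgA, *Madcam1*, the vessel ligand of the gut homing integrin, rose by 1.39, the integrin chain *Itgb7* by 0.63 and the chemokine receptor *Ccr9*, a signal within the dimmest 25% of probe sets, by 0.58. In *Ripk1* mutant against NEMO IEC-KO mice *Madcam1* fell by 1.20 and *Ccr9* by 0.79, while *Itgb7* had a difference of -0.30 that did not pass (adjusted p = 0.114).

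**Figure D4:**
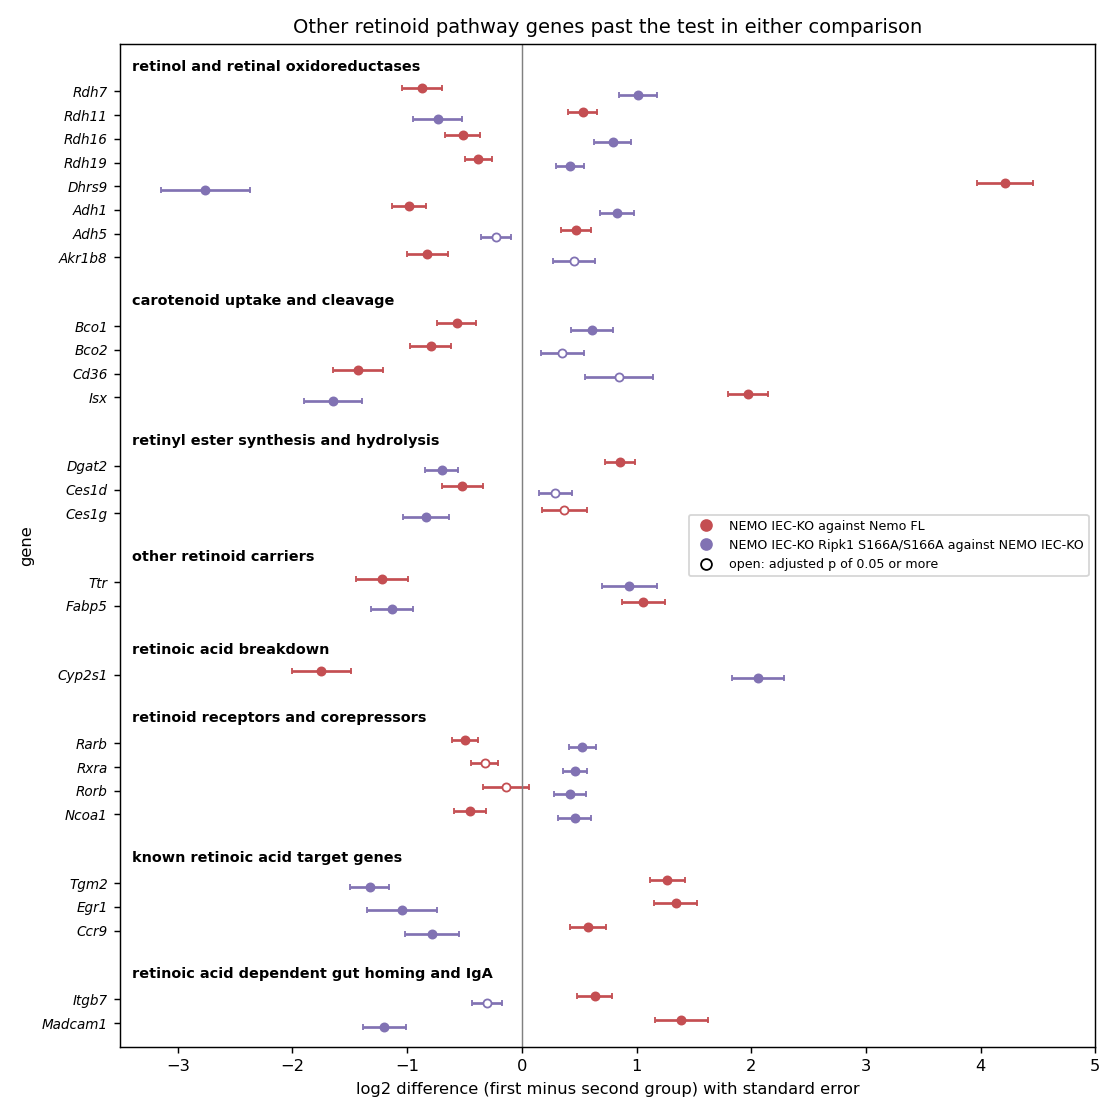
Log2 difference with its standard error (x axis, first group minus second) for other retinoid pathway genes that passed in either of 2 comparisons, grouped by role and filled where the adjusted p was under 0.05. *Dhrs9* has the largest difference, 4.22 between NEMO IEC-KO and control mice, and -2.76 between *Ripk1* mutant and NEMO IEC-KO mice.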

How the data were processed

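The authors prepared labelled cDNA from 100 ng of total RNA of each colon and hybridised it to Clariom S mouse arrays, 1 per mouse. Quality was checked in Transcriptome Analysis Console or Affymetrix Expression Console, per the labels. The values the authors deposited, for 22142 probe sets on 15 arrays, ran from 1.69 to 13.6 and were read as log2. How probe sets were summarised and normalized, how background was treated and the base of the logarithm are not given in the sources used here, and fold changes rest on that reading. Array medians lay between 6.27 and 6.36 and interquartile ranges between 3.01 and 3.40. The number of arrays limits the precision.

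The values were used as deposited, with no filter on dim signals. Of the probe sets, 19527 had 1 gene symbol and 2615 none. Groups followed the titles. A limma model (version 3.58.1 in R 4.3.3, lmFit and eBayes) was fitted to the 2 groups of a comparison, with Benjamini-Hochberg adjustment across all probe sets. The script was tested on simulated data. The 9 members and the gene lists were chosen with earlier results of these data known. Named were all members, up to 4 genes per list with the largest difference among those that passed, any breakdown or receptor gene that passed and, for each member that passed, the 3 most alike probe sets. Other genes named with values that did not pass were chosen after their values were seen. Of the listed pathway genes, 11 were not analysed here. Promoters are from RefSeq. Alternatives were 1 fit of all groups, other eBayes settings, array weights, other normalizations, a filter on dim probe sets, adjustment over named probe sets, mouse 55 by its genotype label, a sex term, other thresholds and leaving out mice. Fits in females only and in males only were added after seeing the data.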

Additional observations from a re-analysis of the deposited data

Results flagged for a closer look

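In 2 of 27 sets of 5 mice (9 genes in 3 groups) the value farthest from the others stood apart by more than Dixon's critical ratio, which chance gives in about 5% of sets. *Aldh1a1* was 5.11 in the fifth NEMO IEC-KO mouse by number, against 6.46 to 6.86 in the other NEMO IEC-KO mice. *Aldh1a3* was 6.90 in *Ripk1* mutant mouse 56, against 6.52 to 6.59 in the other mice of that group.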

How the results depend on the processing

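When mouse 55 was moved to the NEMO IEC-KO group, 2 of the 9 members passed between NEMO IEC-KO and control mice in place of 4, and 3 between *Ripk1* mutant and NEMO IEC-KO mice in place of 5, with *Aldh1a1* and *Rbp2* lost in both. The other pathway genes that passed were then 9 and 7 in place of 24 and 21, of which 7 in each comparison had passed before. They were 15 in the first comparison at a fold change of 1.5 with an unadjusted p under 0.05, and 13 in the second at an adjusted p under 0.01. For *Ripk1* mutant against control mice the fold change rule gave 1, *Dhrs9*, and leaving out each mouse gave 0 to 1. With each mouse left out, 4, 5 and 0 members passed in the 3 comparisons, and 20 to 25 and 16 to 19 other pathway genes in the first 2. Of 534 refits of single members, 503 kept their direction and side of the threshold. Beside *Aldh1a1* and *Rbp2* with mouse 55 moved, *Crabp1* lost its call with a sex term, without mice 94 and 95 and in males only (adjusted p = 0.0629). *Rbp4* passed in males only (-0.58, adjusted p = 0.0498), a value at the threshold. The fit in males only, added after the data were seen, compared 5 *Ripk1* mutant with 2 NEMO IEC-KO mice. The cause was not tested.

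The 23 that changed sign were small and did not pass. Between NEMO IEC-KO and control mice *Rbp4* was -0.024 with mouse 55 moved and -0.15 in females only. Between *Ripk1* mutant and NEMO IEC-KO mice *Crabp2* was -0.024 both with a sex term and for males alone, and *Aldh1a2* -0.025 to 0.11 with a mouse left out. Between *Ripk1* mutant and control mice *Rdh10* was 0.042 with array weights and 0.0087 after quantile normalization, and *Crabp2* 0.093 with mouse 55 moved. Without mice 94 and 95, *Rdh10* was 0.14, *Aldh1a3* 0.029 and *Aldh1a2* 0.0050. With a mouse left out, *Aldh1a2* lay between -0.12 and 0.048, *Aldh1a3* between -0.10 and 0.020, *Rdh10* between -0.070 and 0.079 and *Crabp2* between -0.094 and 0.093. The alternative probe set gave no value, since each member has 1. No analysis by litter was possible, because the litter of each mouse is not given in the sources used here. *Aldh1a2* and *Crabp1* are among the dimmest 25% of probe sets, which the filter on dim probe sets removes.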
